A study of Arabidopsis thaliana with 12 samples.

Results

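Seedlings of the Arabidopsis thaliana mutant tpst that had received 1 µM phytosulfokine (PSK) were compared with untreated wild-type Col-0 seedlings, to describe what still separated the mutant from the wild type after a high dose of PSK and which genes PSK carried beyond the wild-type level. The members were chosen by their labels and not by any measured value, and they are 6 of the 12 RNA-seq libraries of the experiment. They comprise 3 libraries of whole 7-day-old tpst seedlings given 1 µM PSK for 5 h and 3 libraries of whole 7-day-old Col-0 seedlings with no treatment. The other 6 libraries are 3 of tpst with 100 nM PSK for 5 h and 3 of untreated tpst. They entered the same fit, and their levels are given where they show what PSK did between the mutant and the wild type. The tpst seedlings are a single T-DNA insertion line (tpst-1), so any other difference between that line and Col-0 cannot be told apart from the loss of TPST. Labels give the untreated groups a time of 0 and no treatment, while the study describes a water mock, so their harvest hour relative to the PSK-treated seedlings is not settled. Genotype and peptide differ together between the compared groups, so these groups alone cannot tell their parts apart. Where values of untreated tpst are given, they show the change from Col-0 without PSK and the change with PSK, with the harvest hour unsettled.

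PSK is a secreted pentapeptide hormone of plants that promotes cell expansion and root growth and dampens some immune responses. It works only after its tyrosines carry sulfate groups, which the Golgi enzyme tyrosylprotein sulfotransferase (TPST) adds, and it is perceived at the cell surface by the leucine-rich repeat receptor kinases PSKR1 and PSKR2. TPST also sulfates other peptides, among them the RGF peptides that maintain the root meristem, the CIF peptides that seal the Casparian strip of the endodermis, and the PSY peptides. Synthetic PSK given to tpst therefore replaces a single one of the missing peptide families.

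The sequences that encode this hormone are shown because the treatment supplies the peptide that these genes encode and that tpst cannot finish. Each line holds 45 bases of coding exon of a PSK precursor gene, with the 15 bases that encode the PSK pentapeptide in capitals, read 5′ to 3′ from the RefSeq annotation of TAIR10.1 (PSK1 at chr1:4648562-4648606, plus strand, PSK2 at chr2:9738030-9738074, plus strand, PSK3 at chr3:16291388-16291432, minus strand, PSK4 at chr3:18466210-18466254, plus strand, PSK5 at chr5:26352011-26352055, plus strand).
PSK1: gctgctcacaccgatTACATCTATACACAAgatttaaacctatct
PSK2: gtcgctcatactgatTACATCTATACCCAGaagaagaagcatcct
PSK3: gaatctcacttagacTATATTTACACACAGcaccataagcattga
PSK4: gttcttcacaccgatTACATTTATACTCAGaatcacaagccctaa
PSK5: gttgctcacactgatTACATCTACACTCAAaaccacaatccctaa
All 5 precursor genes were detected and tested, and their own levels are given with the rest of the pathway.

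Total counts ran from 17066292 to 19993257 in the libraries of tpst with 1 µM PSK and from 21314381 to 24835416 in those of Col-0, and these ranges did not overlap. Counts were scaled with the trimmed mean of M values (TMM), with factors of 0.974 to 0.978 in tpst with 1 µM PSK and 1.043 to 1.075 in Col-0, and levels are given as CPM, the count of a gene scaled by the library's size, after this step. No 2 libraries were the same. Within Col-0, replicate 3 differed most: the chi-square per degree of freedom was 14.2 and 15.5 against the other Col-0 libraries, 3.37 between those 2, and 2.88 to 4.09 among the libraries of tpst with 1 µM PSK. Markers of the root summed to 2750 to 2918 CPM in tpst with 1 µM PSK, 2812 to 2946 CPM in untreated tpst and 4690 to 4905 CPM in Col-0. Photosynthesis markers of the shoot summed to 63410 to 65107, 61875 to 63512 and 47065 to 52829 CPM in the same groups. In whole seedlings a smaller share of root cells and less RNA per root cell cannot be told apart, and this holds for each root gene below.

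TPST itself had 8.75, 9.26 and 7.100 CPM in the 3 libraries of tpst with 1 µM PSK, against 16.9, 17.03 and 17.3 CPM in Col-0. All mutant libraries lay below all Col-0 libraries, with a log2 change of -1.03 ± 0.13 (SE, edgeR adjusted p = 4.0e-07), and untreated tpst had 6.698, 7.61 and 8.14 CPM. Per length, TPST reached 3.76 ± 0.508 FPKM in tpst with 1 µM PSK and 7.63 ± 0.08604 FPKM in Col-0 (SD, n = 3 each), where FPKM is the authors' count scaled by gene length and library size. The genes of the sulfated peptides and their receptors were mostly lower in tpst with 1 µM PSK than in Col-0. Of 32 listed genes 28 were abundant enough to test, and 17 were lower, 1 was higher and 10 did not pass the test. Their median log2 change was -0.63, against -0.02 over all 20506 genes tested. Across all genes, 17.9% passed the test as lower and 16.9% as higher.

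Among the PSK precursor genes, PSK4 had 4.503, 3.07 and 3.87 CPM in the 3 libraries of tpst with 1 µM PSK, against 13.5, 15.4 and 12.03 CPM in Col-0, a log2 change of -1.83 ± 0.16 (SE, edgeR adjusted p = 1.8e-09). PSK1 had 1.79, 2.11 and 2.54 CPM in tpst with 1 µM PSK and 4.91, 4.78 and 4.91 CPM in Col-0 and was lower as well (-1.18 ± 0.23 (SE, edgeR adjusted p = 2.2e-04)). PSK5 went the other way, with 7.16, 6.62 and 6.04 CPM in tpst with 1 µM PSK and 3.42, 4.69 and 4.72 CPM in Col-0 and a log2 change of 0.62 ± 0.17 (SE, edgeR adjusted p = 0.0043). PSK2 and PSK3 did not pass the test, with log2 changes of -1.07 ± 0.52 (SE, edgeR adjusted p = 0.12) and 0.42 ± 0.18 (SE, edgeR adjusted p = 0.068). The receptor gene PSKR1 had 13.4, 12.2 and 13.5 CPM with 1 µM PSK, 20.3, 19.4 and 18.1 CPM in untreated tpst and 23.3, 16.9 and 19.4 CPM in Col-0. It was lower with 1 µM PSK than in both other groups, with a log2 change of -0.61 ± 0.12 (SE, edgeR adjusted p = 1.7e-04) against Col-0 and -0.56 (edgeR adjusted p = 0.0027) against untreated tpst, and did not pass the test between untreated tpst and Col-0 (-0.04 (edgeR adjusted p = 0.82)). PSKR2 had 18.32, 18.23 and 19.02 CPM in tpst with 1 µM PSK and 20.1, 21.6 and 19.3 CPM in Col-0 and did not pass the test (-0.13 ± 0.09 (SE, edgeR adjusted p = 0.28)). With library totals in place of TMM, PSKR2 was called lower (log2 change -0.24, edgeR adjusted p = 0.033). Without 1 µM PSK replicate 3, PSK2 (-1.84, edgeR adjusted p = 0.031) and PSK3 (0.53, edgeR adjusted p = 0.038) were called, and PSK3 also without Col-0 replicate 3 (0.55, edgeR adjusted p = 0.023).

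Genes for the other sulfated peptides and their receptors also stayed below Col-0. The RGF precursor RGF7 had a log2 change of -2.68 ± 0.43 (SE, edgeR adjusted p = 1.7e-05), RGF9 of -1.17 ± 0.20 (SE, edgeR adjusted p = 1.2e-04) and RGF4 of -1.19 ± 0.37 (SE, edgeR adjusted p = 0.013). The RGF receptor genes RCH1 and RCH2 had log2 changes of -1.20 and -0.66, and both were lower. CIF2 (-0.87) and the receptor gene GSO1 (-0.86) of the Casparian strip pathway were lower, and CIF1 had 0.05 and did not pass the test. PSY3 had 3.38, 3.61 and 3.23 CPM in tpst with 1 µM PSK and 9.54, 10.8 and 7.23 CPM in Col-0 (-1.43 ± 0.21 (SE, edgeR adjusted p = 4.3e-06)). The single member called higher was PSK5, and 2 members were called higher without 1 µM PSK replicate 2, 1 µM PSK replicate 3 or Col-0 replicate 3. Between 1 µM PSK and untreated tpst, 1 of the 28 genes was called higher and 1 lower.

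Over all genes, 7135 of 20506 differed between tpst with 1 µM PSK and Col-0 at a Benjamini-Hochberg adjusted p under 0.05, 3470 of them higher and 3665 lower. A change of at least 2-fold was found for 1609 genes (7.85%), and these were 339 higher and 1270 lower. For 44.5% of all genes the 3 libraries of 1 group all lay on the same side of the 3 of the other. When libraries were scaled by their totals alone, the median log2 change of all genes moved by -0.11 and the calls were split into 2182 higher and 5825 lower, so the balance of higher and lower calls depended on the scaling. For comparison, untreated tpst differed from Col-0 by 2732 higher genes (13.3%) and 2999 lower genes (14.6%), and 1 µM PSK changed 615 genes upward (3%) and 708 downward (3.45%) relative to untreated tpst. These 3 comparisons share libraries with each other, so their calls are not independent.

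**Figure D1:**
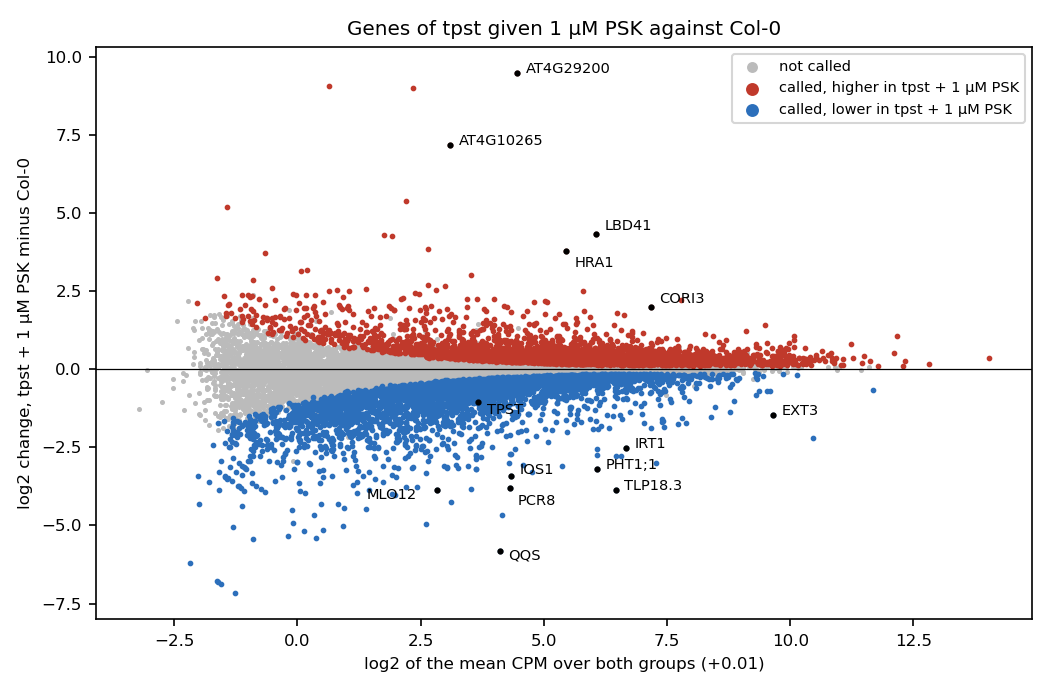
Each point is 1 of the 20506 genes tested, with the log2 of its mean CPM over tpst with 1 µM PSK and Col-0 on the horizontal axis and its log2 change (tpst with 1 µM PSK minus Col-0) on the vertical axis. Red and blue points passed the test as higher and lower, grey points did not, black points are named genes, and the lower side holds 1270 of the 1609 genes that changed at least 2-fold.

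Genes were sorted by the 3 comparisons into those with no called PSK effect and those that PSK moved toward Col-0, moved past it, or moved away from it. The largest group, 4062 genes or 56.9% of the 7135 calls, differed from Col-0 in the same direction with and without PSK and had no called PSK effect (1998 higher, 2064 lower, 985 of them at least 2-fold). A further 119 were still separated from Col-0 although PSK had moved them toward it (26 higher, 93 lower), and 340 were separated and moved further away (157 higher, 183 lower). Another 540 were moved away from Col-0 by PSK with no called difference in untreated tpst (227 higher, 313 lower). In 29 genes untreated tpst lay on one side of Col-0 and tpst with 1 µM PSK on the other, with all 3 comparisons called (9 higher, 20 lower). The remaining 2045 calls were of genes for which neither other comparison passed the test. Conversely, 1181 genes that differed in untreated tpst no longer passed the test with 1 µM PSK. PSK had a called effect toward Col-0 in 190 of these and no called effect in 991, so for most of them the loss of the call is not a called PSK effect.

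The smaller groups moved with single libraries. The 119 genes moved toward Col-0 numbered 65 to 175, the 340 moved further 182 to 529, the 540 moved away 331 to 770, and the 29 past Col-0 16 to 39 when a library was left out. The first count was 77, 65 and 78 without 1 µM PSK replicates 1, 2 and 3 and 73 without tpst replicate 3. The second was 217 without tpst replicate 1, 182 without tpst replicate 2 and 529 without Col-0 replicate 3. The third was 356 without 1 µM PSK replicate 3 and 331 without tpst replicate 2, and the fourth 16 without tpst replicate 3 and 19 without Col-0 replicate 1 or 2. In the lists below, those with no gene called in 1 direction against Col-0 (endodermis, meristem, root hair, root, photosynthesis, triterpene, heat, auxin and cell cycle lists) also had 0 in that direction at an unadjusted p under 0.05 and with DESeq2.

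In the Casparian strip and endodermis list, 10 of 11 genes were lower in tpst with 1 µM PSK than in Col-0 and none was higher, with a median log2 change of -1.41. CASP2, a scaffold protein of the Casparian strip, had 3.74, 1.74 and 2.07 CPM in the 3 libraries of tpst with 1 µM PSK, against 10.04, 8.49 and 9.33 CPM in Col-0, a log2 change of -1.87 ± 0.24 (SE, edgeR adjusted p = 1.5e-06), and untreated tpst had 1.47, 2.58 and 2.28 CPM. CASP1, CASP4 and CASP5 were lower too, with log2 changes of -1.41, -2.48 and -1.47. PER64, a peroxidase for lignin of the strip, had 6.09, 4.63 and 6.09 CPM in tpst with 1 µM PSK and 18.7, 15.9 and 13.6 CPM in Col-0 (-1.51 ± 0.16 (SE, edgeR adjusted p = 3.9e-08)). Within this list only CASP5 had a called PSK effect, a rise of 1.89 on the log2 scale that left it below Col-0 (edgeR adjusted p = 0.043). ESB1, a dirigent-like protein of the strip, was the exception, with a log2 change of 0.27 that did not pass the test. The list summed to 76.1 to 83.6 CPM in tpst with 1 µM PSK, 79.0 to 85.6 CPM in untreated tpst and 134 to 150.2 CPM in Col-0.

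Of 9 root meristem regulators 6 were lower and none was higher, with a median log2 change of -0.66. The transcription factor gene JKD had 5.94, 5.896 and 6.68 CPM in tpst with 1 µM PSK and 16.7, 15.7 and 18.5 CPM in Col-0 (-1.46 ± 0.13 (SE, edgeR adjusted p = 1.1e-09)), and PLT1, a master regulator of the root stem cell niche, had 1.23, 1.56 and 1.17 CPM in tpst with 1 µM PSK and 3.06, 3.33 and 3.37 CPM in Col-0 (-1.31 ± 0.31 (SE, edgeR adjusted p = 0.0018)). WOX5 (-0.19), the marker of the quiescent centre, did not pass the test. None of the 9 had a called PSK effect by edgeR or DESeq2, with 1 rise and 1 fall at an unadjusted p under 0.05. Of 17 root hair genes 15 were tested, 9 were lower and none was higher, with a median of -0.62. RHD2, the NADPH oxidase of growing root hairs, had 8.03, 6.86 and 8.901 CPM in the 3 libraries of tpst with 1 µM PSK, against 24.8, 20.5 and 20.2 CPM in Col-0, a log2 change of -1.46 ± 0.12 (SE, edgeR adjusted p = 4.6e-10). COBL9 had 3.28, 3.19 and 4.61 CPM in tpst with 1 µM PSK and 8.78, 9.09 and 9.597 CPM in Col-0 (-1.31 ± 0.22 (SE, edgeR adjusted p = 4.8e-05)), and the root hair regulator RSL2 had a log2 change of -2.19 ± 0.43 (SE, edgeR adjusted p = 2.1e-04). EXPA7, a root hair expansin, was the one member that PSK changed (0.60 on the log2 scale against untreated tpst, edgeR adjusted p = 0.031), and it no longer differed from Col-0 by the test (-0.24, edgeR adjusted p = 0.27). EXT3, a wall extensin from the list of aquaporins and wall-loosening genes, was lowered by PSK (-0.18 on the log2 scale against untreated tpst, edgeR adjusted p = 0.036) and stood further below Col-0, with 439, 423 and 419 CPM in the 3 libraries of tpst with 1 µM PSK, against 1186, 1164 and 1203 CPM in Col-0, a log2 change of -1.47 ± 0.05 (SE, edgeR adjusted p = 3.1e-17). EXT3 reached 257 ± 5.87 FPKM in tpst with 1 µM PSK and 709 ± 11.9 FPKM in Col-0 (SD, n = 3 each).

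The iron uptake genes FRO2, IRT1 and FIT were far below Col-0 with and without PSK. FRO2, the ferric reductase of the root surface, had 11.4, 20.3 and 22.04 CPM in the 3 libraries of tpst with 1 µM PSK, against 119, 116 and 119.6 CPM in Col-0, a log2 change of -2.73 ± 0.28 (SE, edgeR adjusted p = 8.5e-05). IRT1, the main iron transporter of the root, had 26.9, 30.3 and 33.2 CPM in the 3 libraries of tpst with 1 µM PSK, against 188, 176 and 156 CPM in Col-0, a log2 change of -2.53 ± 0.18 (SE, edgeR adjusted p = 4.3e-06). FIT, the transcription factor that switches both on, had 2.61, 3.07 and 3.97 CPM in tpst with 1 µM PSK and 22.01, 19.2 and 22.8 CPM in Col-0 (-2.73 ± 0.18 (SE, edgeR adjusted p = 1.1e-11)). CYP82C4 (-2.01), F6'H1 (-1.99), which makes iron-chelating coumarins, and MYB10 (-1.56) were lower as well. The genes called higher in this list were BTS (0.52), OPT3 (0.54), NAS4 (0.83) and the iron-signalling peptide genes AT1G47395 (0.69) and AT1G47400 (1.22). In all, 7 of 18 tested genes were lower and 5 were higher, with a median of 0.39, so the list's median had the opposite sign to its uptake genes. The 5 higher calls became 10 without Col-0 replicate 3, and 3 without Col-0 replicate 1, Col-0 replicate 2 or 1 µM PSK replicate 2. With 1 µM PSK against untreated tpst no member was called by edgeR (1 higher and 1 lower at an unadjusted p under 0.05, and 1 lower by DESeq2), and the log2 changes were -0.02 for FRO2 and 0.01 for IRT1.

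**Figure D2:**
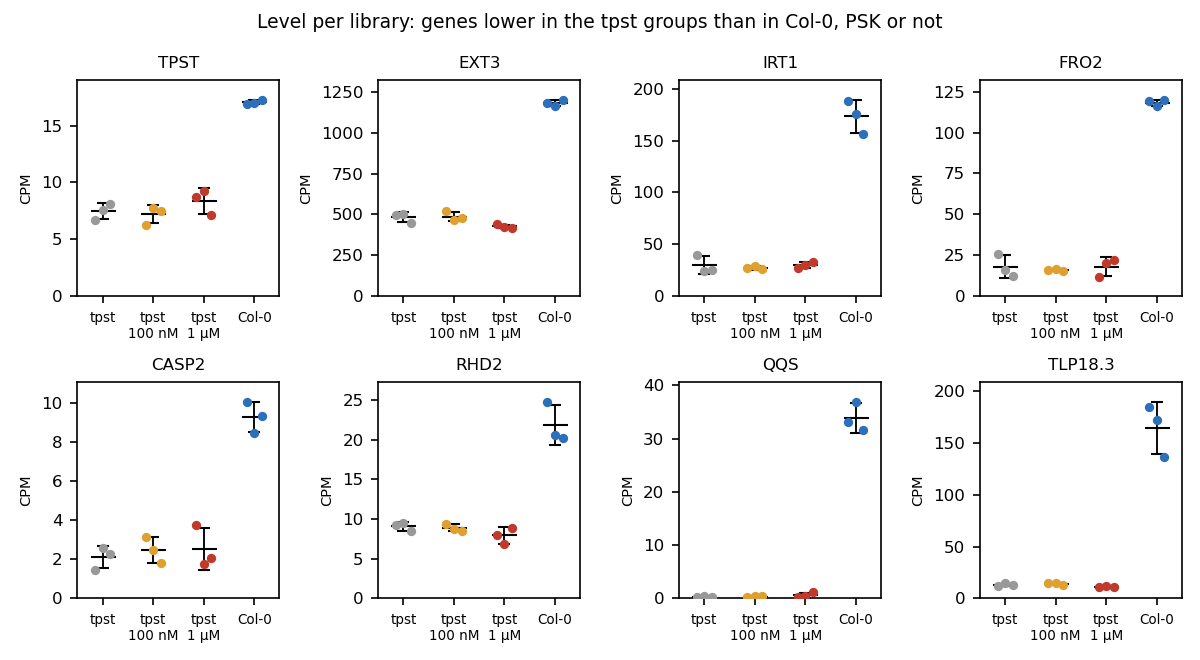
Points are the CPM of single libraries for TPST, EXT3, IRT1, FRO2, CASP2, RHD2, QQS and TLP18.3 in untreated tpst, tpst with 100 nM PSK, tpst with 1 µM PSK and Col-0, with the mean (bar) and SD of 3 libraries and vertical axes that start at 0. In each panel the 9 mutant libraries lie below the 3 Col-0 libraries, at every PSK dose.

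The genes with the lowest values relative to Col-0 included several with no called PSK effect. QQS, an orphan gene linked to starch and protein content, had 0.307, 0.361 and 1.11 CPM in the 3 libraries of tpst with 1 µM PSK, against 33.1, 36.9 and 31.6 CPM in Col-0, a log2 change of -5.81 ± 0.23 (SE, edgeR adjusted p = 5.3e-16). Likewise TLP18.3, which takes part in photosystem II repair, had 10.9, 12.3 and 11.02 CPM in the 3 libraries of tpst with 1 µM PSK, against 185, 172 and 136 CPM in Col-0, a log2 change of -3.85 ± 0.10 (SE, edgeR adjusted p = 3.5e-16). AT4G33720 had 1.48, 1.02 and 1.43 CPM in tpst with 1 µM PSK and 41.6, 31.8 and 28.7 CPM in Col-0 (-4.68 ± 0.34 (SE, edgeR adjusted p = 1.1e-06)). On the other side, AT4G29200 had 45.7, 42.7 and 43.98 CPM in the 3 libraries of tpst with 1 µM PSK, against 0, 0.171 and 0 CPM in Col-0. It rests on 4 counts over the Col-0 libraries, against 2433 over the libraries of tpst with 1 µM PSK, a ratio of about 739 after division by the library totals, and untreated tpst had 40.7, 42.6 and 42.7 CPM. AT2G01422, a noncoding RNA gene, had 9.77, 11.7 and 8.901 CPM in tpst with 1 µM PSK against 1 count over all Col-0 libraries. AT1G64795 had 3.07, 2.59 and 3.66 CPM in tpst with 1 µM PSK and 0 counts in every Col-0 library, and at a floor of 3 counts over the group it was at least 69.7-fold higher. These 3 genes lie on chromosomes 4, 2 and 1, were at like levels in untreated tpst, and had no called PSK effect.

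In the list of jasmonate synthesis and response, 11 of 23 tested genes were called above Col-0 and 2 below it, and PSK changed 1 of them relative to untreated tpst (JAZ6, lower). The median log2 change over these genes was 0.51. CORI3, a jasmonate-induced lyase, had 220.4, 244 and 230.0 CPM in the 3 libraries of tpst with 1 µM PSK, against 61.1, 51.3 and 62.8 CPM in Col-0, a log2 change of 1.99 ± 0.07 (SE, edgeR adjusted p = 2.5e-14), and untreated tpst had 279, 250.2 and 251 CPM. LOX2 (1.43) and AOS (1.26), which make the precursors of jasmonate in the chloroplast, AOC1 (0.52), AOC2 (0.51) and OPR3 (0.67) were all higher. VSP2, a storage protein and marker of jasmonate, had 2.35, 0.842 and 1.43 CPM in tpst with 1 µM PSK and 0.1801, 0.341 and 0.675 CPM in Col-0 (1.91 ± 0.46 (SE, edgeR adjusted p = 0.0017)). VSP1 (1.68) and JAZ7 (1.93) were higher too, but VSP1 lost its call without 1 µM PSK replicate 3 or Col-0 replicate 2 and JAZ7 without either replicate 3 (1 µM PSK or Col-0), with log2 changes between 1.24 and 1.75. The 2 lower members were JAZ1 (-0.25) and JAR1 (-0.19), and 0 or 1 was called lower in several alternatives, with 0 when Col-0 replicate 3 was left out and 1 without Col-0 replicate 1, 1 µM PSK replicate 2 or 1 µM PSK replicate 3. MYC2, a regulator in the same list, was listed at 0 in all 12 libraries and was not tested.

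Photosynthesis genes were moderately higher. Of 26 shoot markers 19 were higher than in Col-0 and none was lower, with a median log2 change of 0.33 and no change of 2-fold. LHCB4.1, an antenna protein of photosystem II, had 1960.2, 1915 and 1926 CPM in the 3 libraries of tpst with 1 µM PSK, against 1415, 1366 and 1053 CPM in Col-0, a log2 change of 0.60 ± 0.09 (SE, edgeR adjusted p = 1.7e-04). LHCB6 had 791, 782 and 787 CPM in tpst with 1 µM PSK and 563, 519.7 and 355 CPM in Col-0 (0.72 ± 0.15 (SE, edgeR adjusted p = 0.0053)). RBCS1B, a small subunit of Rubisco, had 2979.8, 3083 and 3096 CPM in tpst with 1 µM PSK and 1907, 2175 and 1119.7 CPM in Col-0 (0.82 ± 0.21 (SE, edgeR adjusted p = 0.015)), and Col-0 replicate 3 was the lowest library for all 3 genes. RBCS1B was not called in the fit to the compared groups only (0.83, edgeR adjusted p = 0.094). PSK raised 2 members, GAPB (0.20) and RCA (0.21), relative to untreated tpst, and both were also higher than in Col-0 (0.52 and 0.52). Aliphatic glucosinolate genes went both ways, with 5 of 11 higher, 2 lower and a median of 0.10. FMOGS-OX1, which oxidises their side chain, was higher (0.53 ± 0.08 (SE, edgeR adjusted p = 1.4e-05)) and CYP79F2 was lower (-0.66 ± 0.07 (SE, edgeR adjusted p = 5.2e-08)). Library totals reduced the 5 higher calls to 3, and 1 lower call was left without Col-0 replicate 1 or 1 µM PSK replicate 1.

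Immune genes were among those below Col-0 in the mutant that PSK lowered further. PAMP-response genes are those that plants switch on when they sense microbial patterns. Of 24 tested, 21 were lower in tpst with 1 µM PSK than in Col-0 and 1 was higher, with a median log2 change of -2.0. Against Col-0, untreated tpst had 12 lower and 1 higher, with a median of -0.51, and 1 µM PSK lowered 16 and raised 0 relative to untreated tpst, with a median of -1.36. At an unadjusted p under 0.05 the PSK effect was 20 lower and 1 higher, and with DESeq2 17 lower and 1 higher. The list was chosen with earlier results of these data known. The study named members of it, IOS1, MLO12 and PCR8 among them, as lowered by PSK, partly on these samples. The direction of the list is therefore not independent evidence. IOS1, a receptor-like kinase, had 2.97, 4.21 and 3.23 CPM with 1 µM PSK, 17.2, 15.2 and 14.4 CPM in untreated tpst and 35.8, 33.2 and 41.8 CPM in Col-0. Its log2 change against Col-0 was -3.42 ± 0.15 (SE, edgeR adjusted p = 3.1e-15). MLO12, a membrane protein of the powdery mildew susceptibility family, had 0.665, 0.662 and 1.38 CPM with 1 µM PSK, 6.15, 5.32 and 4.704 CPM in untreated tpst and 15.4, 11.8 and 13.05 CPM in Col-0, with a log2 change against Col-0 of -3.88 ± 0.25 (SE, edgeR adjusted p = 2.4e-12). PCR8 had 2.15, 2.89 and 2.97 CPM with 1 µM PSK, 20.05, 18.00 and 17.2 CPM in untreated tpst and 42.5, 34.9 and 33.6 CPM in Col-0, with a log2 change against Col-0 of -3.80 ± 0.17 (SE, edgeR adjusted p = 7.9e-14). In all 3 genes the groups were separate, with 1 µM PSK lowest and Col-0 highest. FRK1, a marker gene of the flagellin response, had a log2 change of -3.24 ± 0.50 (SE, edgeR adjusted p = 9.5e-06) and PER4 of -3.45 ± 0.38 (SE, edgeR adjusted p = 4.6e-07). WRKY33 (0.18) did not pass the test, and PHI-1 (2.01) was the one member above Col-0.

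Promoters of IOS1, MLO12 and PCR8 are shown because these genes were lower with 1 µM PSK than in untreated tpst and Col-0 in every library and because WRKY transcription factors, many of which were lower too, bind the W-box. Each run holds the 300 bases before the annotated gene start, with W-box matches (TTGACC or TTGACT on either strand, none overlapping) in capitals, from the RefSeq sequence of TAIR10.1 (IOS1 chr1:19213772-19214071, plus strand, MLO12 chr2:16359944-16360243, minus strand, PCR8 chr1:19443632-19443931, minus strand).
IOS1: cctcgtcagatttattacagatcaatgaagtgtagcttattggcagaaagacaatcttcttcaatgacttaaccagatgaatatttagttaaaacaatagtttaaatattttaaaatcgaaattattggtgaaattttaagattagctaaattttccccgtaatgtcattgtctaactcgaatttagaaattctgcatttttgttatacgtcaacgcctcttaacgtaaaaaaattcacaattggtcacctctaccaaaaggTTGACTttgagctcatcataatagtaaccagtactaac
MLO12: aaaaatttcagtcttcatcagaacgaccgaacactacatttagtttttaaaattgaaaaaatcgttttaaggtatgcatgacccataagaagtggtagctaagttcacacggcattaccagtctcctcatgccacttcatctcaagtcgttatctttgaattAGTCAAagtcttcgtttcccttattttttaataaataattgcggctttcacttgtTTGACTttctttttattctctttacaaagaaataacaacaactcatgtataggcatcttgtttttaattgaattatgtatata
PCR8: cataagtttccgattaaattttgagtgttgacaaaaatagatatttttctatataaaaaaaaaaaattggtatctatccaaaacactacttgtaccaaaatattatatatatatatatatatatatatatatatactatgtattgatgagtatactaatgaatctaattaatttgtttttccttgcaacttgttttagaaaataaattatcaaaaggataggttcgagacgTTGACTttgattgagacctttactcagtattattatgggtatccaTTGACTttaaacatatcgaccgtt
IOS1 held 1 match, MLO12 2 and PCR8 2. These 3 were chosen, after their values were seen, from 9 low genes whose promoters were searched for the W-box. The promoters of AT1G51790 (3 matches) and AT2G36690 (1 match) held it too, and those of WRKY27, AT5G48430, PHT1;1 and QQS held none. A match was present in 20 of the 24 PAMP-response genes, in 254 of 499 protein-coding genes that were lower than Col-0 and lowered by PSK (50.9%), in 753 of 2056 that were lower with no called PSK effect (36.6%), in 106 of 389 that were higher and raised by PSK (27.2%), and in 6376 of all 19930 protein-coding genes tested (32.0%). A first search, from 250 bases before to 50 after the start, gave 52.7%, 36.5%, 27.0% and 32.6% for the last 4 sets, and the window was then changed to leave out transcribed bases. The hypoxia-responsive promoter element (HRPE) was also searched, on either strand, in 8 hypoxia genes (HRA1, LBD41, PCO1, PCO2, ADH1, AT1G33055, AT4G10265 and AT4G24110). None held it in the 300 bases, 1 (PCO1) did in the first window, and 10 and 16 of the 19930 genes did. These shares describe letters in a window and were not tested.

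The WRKY family itself was mostly lower. Of 70 genes 54 were abundant enough to test, 31 were lower (57.4%) and 5 were higher (9.26%) than in Col-0, with a median log2 change of -0.62. Across all genes 17.9% were lower and 16.9% higher. WRKY27 had 1.23, 2.35 and 1.32 CPM with 1 µM PSK, 4.63, 6.58 and 4.65 CPM in untreated tpst and 9.32, 8.79 and 8.697 CPM in Col-0 (-2.47 ± 0.24 (SE, edgeR adjusted p = 7.1e-09) against Col-0), and WRKY72 had 1.996, 1.99 and 1.32 CPM with 1 µM PSK, 4.22, 4.13 and 3.94 CPM in untreated tpst and 9.99, 9.81 and 9.33 CPM in Col-0 (-2.46 ± 0.19 (SE, edgeR adjusted p = 1.5e-10) against Col-0). WRKY54 was below Col-0 with and without PSK, with 0.819, 0.481 and 1.01 CPM with 1 µM PSK, 0.642, 1.104 and 0.506 CPM in untreated tpst and 2.75, 3.63 and 3.79 CPM in Col-0 (-2.12 ± 0.36 (SE, edgeR adjusted p = 3.8e-05) against Col-0). WRKY49 rested on few counts, with 0.205, 0.1203 and 0 CPM in tpst with 1 µM PSK and 2.61, 2.77 and 5.62 CPM in Col-0 and a log2 change of -5.01 ± 0.59 (SE, edgeR adjusted p = 2.8e-07). PSK lowered 12 of the 54 members and raised 2 relative to untreated tpst, while over all genes it lowered 3.45% and raised 3%. WRKY70 (0.92) and WRKY44 (1.3) were the members most above Col-0. Among 12 pattern-recognition receptors and co-receptors, 7 were lower and 1 was higher (median -0.35), and PSK lowered 6. LYK4, which takes part in chitin sensing, had 1.48, 2.53 and 1.96 CPM with 1 µM PSK, 5.41, 5.03 and 3.94 CPM in untreated tpst and 9.27, 8.24 and 10.1 CPM in Col-0 (-2.22 ± 0.20 (SE, edgeR adjusted p = 2.5e-09) against Col-0). FLS2, the flagellin receptor, had 17.9, 19.7 and 19.2 CPM with 1 µM PSK, 25.8, 30.3 and 23.8 CPM in untreated tpst and 26.4, 27.7 and 27.9 CPM in Col-0, and all libraries with 1 µM PSK lay below those of both other groups (-0.53 ± 0.09 (SE, edgeR adjusted p = 5.5e-05) against Col-0). SD129 (-1.27), CERK1 (-0.71), SOBIR1 (-0.48) and BIK1 (-0.39) were lower, and RBOHD (0.47), the oxidase of the immune burst, was higher.

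Indole glucosinolate genes shared this pattern in part, with 9 of 16 lower (56.25%) and 3 higher (18.75%, near the 16.9% of all genes), and a median of -0.50. CYP81F2, which modifies indole glucosinolates during defence, had 3.17, 1.93 and 2.54 CPM with 1 µM PSK, 6.698, 4.42 and 7.54 CPM in untreated tpst and 12.7, 15.02 and 14.2 CPM in Col-0 (-2.44 ± 0.20 (SE, edgeR adjusted p = 2.4e-10) against Col-0), and IGMT2 had 4.401, 4.33 and 3.29 CPM with 1 µM PSK, 9.45, 8.63 and 7.94 CPM in untreated tpst and 12.1, 13.7 and 11.3 CPM in Col-0 (-1.63 ± 0.15 (SE, edgeR adjusted p = 4.0e-09) against Col-0). IGMT1 was low with and without PSK (-2.65 ± 0.22 (SE, edgeR adjusted p = 6.5e-10)). PAD3 (0.51), CYP79B2 (0.34) and SUR1 (0.25) were higher. In the salicylic acid pathway 6 of 17 tested genes were lower and 2 were higher (median -0.20), and PSK lowered 1 and raised 2. These were 35.3% lower and 11.8% higher. Over all genes, 17.9% were lower and 16.9% higher than in Col-0, and PSK lowered 3.45% and raised 3%. CBP60G, an activator of salicylic acid synthesis, had 3.28, 2.05 and 4.03 CPM in tpst with 1 µM PSK and 6.12, 9.004 and 5.51 CPM in Col-0 (-1.13 ± 0.23 (SE, edgeR adjusted p = 4.2e-04)), and FMO1, which makes the signal N-hydroxypipecolic acid, had a log2 change of -2.25 ± 0.48 (SE, edgeR adjusted p = 6.3e-04). PR1 (-1.50, edgeR adjusted p = 0.31) and ICS1 (-0.01, edgeR adjusted p = 0.97) did not pass the test. PR2 (0.75) and WRKY70 were the higher members, and 1 was left without 1 µM PSK replicate 1.

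Among nitrate and phosphate genes, 6 of 14 tested were lower with 1 µM PSK than in Col-0 and 1 was higher, with a median of -0.30. PSK lowered 6 and raised 0 relative to untreated tpst, also by DESeq2 and at an unadjusted p under 0.05, and 2 (PHT1;1 and NRT3.1) were below Col-0 in untreated tpst and moved further. PHT1;1, a high-affinity phosphate transporter, had 13.2, 14.1 and 13.2 CPM with 1 µM PSK, 44.8, 48.3 and 43.4 CPM in untreated tpst and 128, 124 and 116 CPM in Col-0. The log2 change against Col-0 was -3.19 ± 0.07 (SE, edgeR adjusted p = 1.5e-21), of which -1.76 arose between untreated tpst and 1 µM PSK. NRT3.1, the partner protein of high-affinity nitrate uptake, had 8.85, 11.1 and 11.2 CPM with 1 µM PSK, 27.5, 22.7 and 27.2 CPM in untreated tpst and 43.3, 39.05 and 36.7 CPM in Col-0 (-1.93 ± 0.11 (SE, edgeR adjusted p = 2.7e-13) against Col-0), and the sulfate transporter SULTR1;2 had 25.5, 22.7 and 28.3 CPM with 1 µM PSK, 51.7, 42.2 and 41.9 CPM in untreated tpst and 99.99, 73.6 and 73.5 CPM in Col-0 (-1.69 ± 0.13 (SE, edgeR adjusted p = 7.3e-07) against Col-0). NRT1.5, a nitrate exporter toward the shoot, was low with and without PSK, at 49.1, 54.5 and 54.8 CPM with 1 µM PSK, 55.7, 55.5 and 54.2 CPM in untreated tpst and 123, 110.3 and 120.1 CPM in Col-0 (-1.16 ± 0.06 (SE, edgeR adjusted p = 5.9e-14) against Col-0). In contrast to the sulfate transporters SULTR1;1 (-2.03) and SULTR1;2, other genes induced by sulfur starvation were above Col-0, with 12 of 16 higher and 2 lower (median 0.83). LSU2, named for its response to low sulfur, had 43.5, 35.9 and 40.3 CPM with 1 µM PSK, 25.7, 20.2 and 22.2 CPM in untreated tpst and 11.6, 12.8 and 8.36 CPM in Col-0 (1.88 ± 0.13 (SE, edgeR adjusted p = 2.9e-09) against Col-0). LSU1 had 8.904, 4.81 and 4.72 CPM with 1 µM PSK, 2.29, 1.35 and 2.17 CPM in untreated tpst and 2.48, 1.41 and 1.09 CPM in Col-0 (1.91 ± 0.29 (SE, edgeR adjusted p = 1.9e-05) against Col-0), and the sulfate-reducing enzyme genes APR1, APR2 and APR3 had log2 changes of 0.64, 0.91 and 0.85. PSK raised 4 members, LSU1, LSU2, AT1G04770 and SHM7, relative to untreated tpst and lowered SULTR1;2, while 7 were higher by DESeq2 and 8 at an unadjusted p under 0.05. The sum over all 16 root markers was near that of untreated tpst. Within this list PSK lowered 5 genes, SULTR1;2 among them, and raised 3. Over all genes PSK lowered 3.45% and raised 3%. The cause of the further fall of PHT1;1 and SULTR1;2 was not tested.

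Of 15 listed genes of the oxygen-deprivation response 4 were raised by PSK relative to untreated tpst and none was lowered, with a median log2 change of 0.14. The 4 were LBD41, HRA1, PCO1 and PCO2, and each was also higher than in Col-0. At an unadjusted p under 0.05 the PSK effect was 6 higher, and with DESeq2 5 higher. Over all genes PSK raised 3% and lowered 3.45%. The list was chosen with earlier results of these data known, and the study reported hypoxia terms among genes raised in several PSK treatments. Its direction is therefore not independent evidence. LBD41, a transcription factor induced by low oxygen, had 79.7, 121 and 180.1 CPM with 1 µM PSK, 5.69, 9.45 and 20.3 CPM in untreated tpst and 6.03, 5.29 and 7.38 CPM in Col-0. Its log2 change against Col-0 was 4.34 ± 0.60 (SE, edgeR adjusted p = 5.5e-04), and the difference between untreated tpst and Col-0 did not pass the test (0.89 (edgeR adjusted p = 0.38)). HRA1, an attenuator of the hypoxia response, had 46.98, 74.9 and 124 CPM with 1 µM PSK, 6.15, 6.99 and 12.6 CPM in untreated tpst and 5.99, 5.93 and 5.66 CPM in Col-0 (3.80 ± 0.55 (SE, edgeR adjusted p = 7.3e-04) against Col-0). The cysteine oxidase genes PCO1 and PCO2, whose products sense oxygen, had 16.1, 20.2 and 30.5 CPM and 15.5, 22.1 and 28.2 CPM with 1 µM PSK, against 5.54, 6.83 and 5.74 CPM and 5.72, 5.93 and 5.47 CPM in Col-0 (1.88 (edgeR adjusted p = 8.8e-04) and 1.94 (edgeR adjusted p = 0.0015)). AT4G10265 (log2 change 7.20), AT1G33055 (3.85), AT3G06435 (2.67) and AT4G24110 (3.02) are not in this list and were named as 4 of the 10 highest genes against Col-0. With 100 nM PSK, LBD41 had 20.03, 47.7 and 59.9 CPM and HRA1 12.3, 32.8 and 38.5 CPM. The treated libraries varied widely, as the highest 1 µM PSK library had 180.1 CPM of LBD41 and the lowest 79.7 CPM, yet none overlapped Col-0. In untreated tpst and at both doses, LBD41, HRA1, AT4G10265, AT1G33055 and AT4G24110 rose from replicate 1 to replicate 3. Of these genes, only AT1G33055 did so in Col-0 (0.630, 0.640 and 1.12 CPM). PCO1, PCO2 and AT3G06435 rose in this order at both PSK doses or at 1 µM PSK only, but not in untreated tpst, and the cause was not tested. Against Col-0, 7 of the 15 listed genes were higher (46.7%) and 2 lower (13.3%), with a median of 0.46. Across all genes the shares were 16.9% and 17.9%. ADH1 (0.28, edgeR adjusted p = 0.48), the alcohol dehydrogenase of fermentation, did not pass the test, PDC1 (1.01) did, and HRE1 (-0.71) and ETR2 (-0.53) were lower, 1 of these calls being lost without 1 µM PSK replicate 1 or 1 µM PSK replicate 2.

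**Figure D3:**
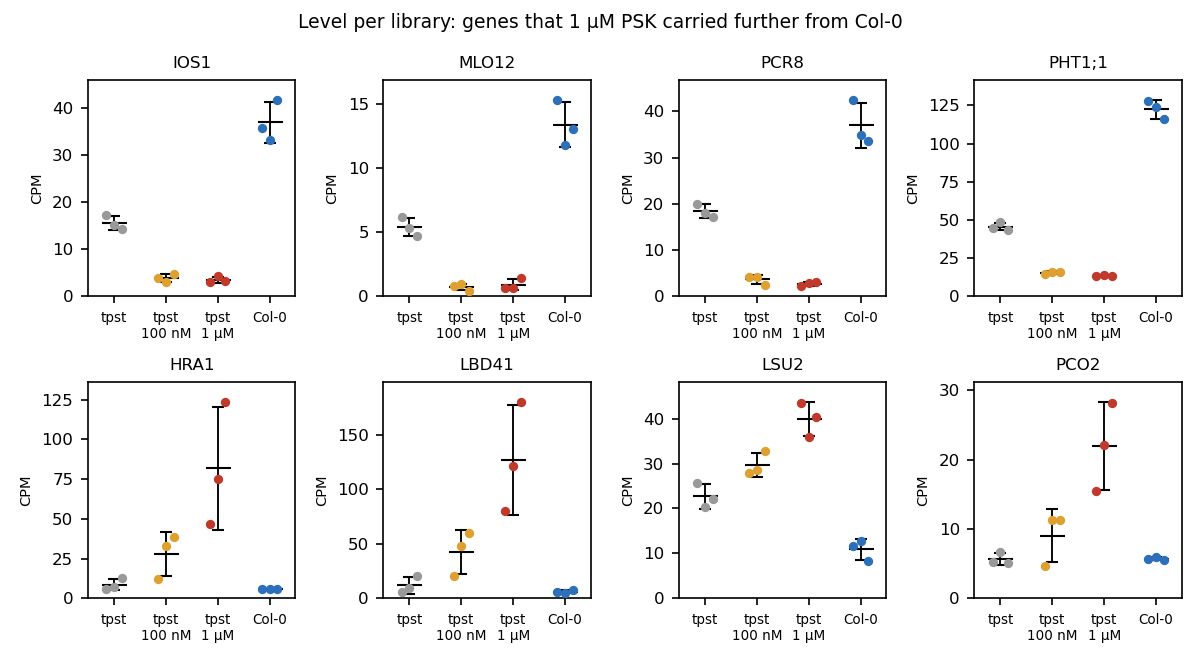
Points are the CPM of single libraries for IOS1, MLO12, PCR8, PHT1;1, HRA1, LBD41, LSU2 and PCO2 in untreated tpst, tpst with 100 nM PSK, tpst with 1 µM PSK and Col-0, with the mean (bar) and SD of 3 libraries and vertical axes that start at 0. The first 4 genes fell with PSK below an untreated level that was already under Col-0. The last 4 rose with 1 µM PSK and stood above Col-0, where LSU2 already was in untreated tpst. LBD41 lay between 79.7 and 180.1 CPM at 1 µM PSK.

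A measure of RNA composition moved at 1 µM PSK as well. RRN18, the mitochondrial 18S ribosomal RNA, had 31.4, 37.96 and 33.5 CPM with 1 µM PSK, 239.8, 236 and 283 CPM in untreated tpst and 289.6, 277 and 255 CPM in Col-0, and tpst with 100 nM PSK had 166, 203 and 243 CPM. All libraries were made from RNA with poly(A) tails. Its part in the other results was not tested.

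The thalianol pathway, a cluster of genes for a root triterpene, was raised by PSK toward Col-0. In untreated tpst all 7 genes were lower than in Col-0, with a median log2 change of -1.14, and 1 µM PSK raised 6 of them relative to untreated tpst, with a median of 1.1. Against Col-0, tpst with 1 µM PSK had 2 higher and 2 lower, with a median of 0.06. The study chose this pathway on these samples, so its direction is not independent evidence. CYP705A5, which desaturates thalianol derivatives, had 36.2, 34.7 and 41.8 CPM with 1 µM PSK, 16.97, 13.9 and 14.4 CPM in untreated tpst and 33.1, 35.8 and 39.3 CPM in Col-0, so the 1 µM PSK and Col-0 libraries overlapped (0.06 ± 0.09 (SE, edgeR adjusted p = 0.68)). SDR4 remained below Col-0 (-0.37 ± 0.09 (SE, edgeR adjusted p = 0.0027)), with 30.9, 28.03 and 30.8 CPM with 1 µM PSK, 19.6, 17.3 and 15.8 CPM in untreated tpst and 39.4, 41.1 and 35.9 CPM in Col-0. AT5G47950 was still lower (-1.48 ± 0.19 (SE, edgeR adjusted p = 9.2e-07)) and had no called PSK effect. The other triterpene genes, of the marneral and arabidiol pathways, stayed low, with 4 of 4 tested genes lower (median -1.24) and none changed by PSK by edgeR or DESeq2 (2 higher at an unadjusted p under 0.05). With DESeq2 3 of the 4 were lower than in Col-0. PEN1, the arabidiol synthase, had 4.299, 4.33 and 4.398 CPM with 1 µM PSK, 4.27, 4.13 and 3.54 CPM in untreated tpst and 11.3, 10.1 and 8.66 CPM in Col-0 (-1.21 ± 0.16 (SE, edgeR adjusted p = 1.5e-06) against Col-0). CYP705A12 was close to the threshold (-1.09, edgeR adjusted p = 0.044) and lost its call in several alternatives, among them those without 1 µM PSK replicate 1, 1 µM PSK replicate 2, 1 µM PSK replicate 3, tpst replicate 1, Col-0 replicate 2 or Col-0 replicate 3, with log2 changes from -1.31 to -0.90.

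Other genes moved part of the way or no longer passed the test against Col-0. The tonoplast aquaporin TIP2;3 had 3.84, 6.14 and 6.84 CPM with 1 µM PSK, 1.93, 1.84 and 0.8598 CPM in untreated tpst and 18.8, 17.5 and 10.7 CPM in Col-0 (-1.48 ± 0.25 (SE, edgeR adjusted p = 3.1e-04) against Col-0), and the neighbouring lipid-transfer protein genes AT5G46890 and AT5G46900 had log2 changes of -2.77 and -2.45 against Col-0 after PSK effects of 1.26 and 1.77. These 2 genes are alike in annotation and adjacent, and how fragments shared by close copies were counted is not stated. UGT91A1, a flavonol glycosyltransferase, had 5.07, 2.95 and 3.34 CPM with 1 µM PSK, 1.65, 1.55 and 1.77 CPM in untreated tpst and 17.602, 17.7 and 13.3 CPM in Col-0 (-2.08 ± 0.20 (SE, edgeR adjusted p = 1.2e-08) against Col-0), and the arabinogalactan protein gene AGP22 had 4.09, 5.35 and 5.09 CPM with 1 µM PSK, 1.74, 2.94 and 1.62 CPM in untreated tpst and 19.1, 18.1 and 10.3 CPM in Col-0 (-1.71 ± 0.23 (SE, edgeR adjusted p = 1.1e-05) against Col-0). NRT2.1, the high-affinity nitrate transporter, was lowered by PSK, with 3.99, 1.805 and 4.03 CPM with 1 µM PSK, 17.7, 12.2 and 15.6 CPM in untreated tpst and 9.36, 3.798 and 5.55 CPM in Col-0, and no longer passed the test against it (-0.90 ± 0.44 (SE, edgeR adjusted p = 0.15)), although the PSK effect did (-2.19 (edgeR adjusted p = 0.015)). AGP30 (-0.67, edgeR adjusted p = 0.067) counts among the genes no longer separated, with no called PSK effect (0.57, edgeR adjusted p = 0.29). It was called lower without tpst replicate 3 (-0.67, edgeR adjusted p = 0.016), by DESeq2, with library totals and in the fit to the compared groups only.

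In 29 genes PSK went past the wild-type level, mostly by small amounts, and none of them met a 2-fold minimum in all 3 comparisons. Downward, 20 genes were above Col-0 in untreated tpst and below it with 1 µM PSK. KCS12, of the enzyme family that elongates very-long-chain fatty acids, had 0.972, 1.504 and 1.75 CPM with 1 µM PSK, 7.98, 8.55 and 10.2 CPM in untreated tpst and 3.74, 4.57 and 4.99 CPM in Col-0, a log2 change against Col-0 of -1.66 ± 0.23 (SE, edgeR adjusted p = 2.7e-06). ABCB14, a guard cell malate importer, had 5.58, 6.08 and 6.04 CPM with 1 µM PSK, 17.3, 17.01 and 18.21 CPM in untreated tpst and 12.4, 13.5 and 13.5 CPM in Col-0 (-1.16 ± 0.12 (SE, edgeR adjusted p = 2.2e-08) against Col-0). CUT1, which makes precursors of cuticular wax, had 153, 161 and 153 CPM with 1 µM PSK, 236, 243 and 264 CPM in untreated tpst and 180.4, 177 and 215 CPM in Col-0 (-0.29 ± 0.06 (SE, edgeR adjusted p = 5.9e-04) against Col-0). NRT1.1, the nitrate transporter and sensor, had 154, 175 and 181 CPM with 1 µM PSK, 252, 244 and 242 CPM in untreated tpst and 215, 203 and 222 CPM in Col-0 (-0.33 ± 0.06 (SE, edgeR adjusted p = 4.1e-05) against Col-0). In these 4 genes no library of a group overlapped another group. PME25, CYP706A1, SULTR3;3, HIPL1, AIG2A, RBCL and WRKY11 also went from above Col-0 to below it, with log2 changes against Col-0 of -0.66, -0.36, -0.21, -0.47, -0.37, -0.66 and -0.41. Of 15 alternatives other than the 2-fold minimum, SULTR3;3 and WRKY11 were past Col-0 in 7 each, and the other genes named here in 10 to 13. RBCL is the chloroplast-encoded large subunit of Rubisco, and its transcript is seen here through RNA with poly(A) tails only. It had 17.7, 21.1 and 17.9 CPM with 1 µM PSK, but 38.9, 39.7 and 32.7 CPM with 100 nM PSK and 36.6, 32.3 and 40.2 CPM in untreated tpst. RBCL thus fell at 1 µM PSK only, as RRN18 mostly did, and a link was not tested.

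Upward, 9 genes were below Col-0 in untreated tpst and above it with 1 µM PSK. THAS1, the thalianol synthase, had 63.7, 50.4 and 55.5 CPM with 1 µM PSK, 29.3, 17.9 and 19.6 CPM in untreated tpst and 42.5, 33.4 and 35.4 CPM in Col-0, a log2 change against Col-0 of 0.61 ± 0.19 (SE, edgeR adjusted p = 0.036). CYP708A2, the thalianol hydroxylase, had 45.1, 38.9 and 39.7 CPM with 1 µM PSK, 17.8, 13.2 and 15.98 CPM in untreated tpst and 26.3, 28.2 and 34.6 CPM in Col-0 (0.47 ± 0.12 (SE, edgeR adjusted p = 0.0066) against Col-0). With 100 nM PSK, THAS1 had 57.7, 44.3 and 58.2 CPM and CYP708A2 40.2, 30.6 and 38.01 CPM. The plasma membrane aquaporin PIP2;1 had 332, 348 and 349.5 CPM with 1 µM PSK, 201, 216 and 223 CPM in untreated tpst and 308, 288 and 229.8 CPM in Col-0 (0.32 ± 0.08 (SE, edgeR adjusted p = 0.006) against Col-0), and PIP1;2 had 347, 382 and 372 CPM with 1 µM PSK, 250.2, 253 and 265 CPM in untreated tpst and 327, 331 and 289.8 CPM in Col-0 (0.22 ± 0.05 (SE, edgeR adjusted p = 0.0027) against Col-0). P5CSA, which makes proline, had 26.4, 24.3 and 22.5 CPM with 1 µM PSK, 16.2, 13.4 and 14.5 CPM in untreated tpst and 20.9, 20.4 and 17.7 CPM in Col-0 (0.31 ± 0.10 (SE, edgeR adjusted p = 0.013) against Col-0). CIPK14, CHI3, CHI1 and CCP1 had log2 changes of 0.46, 0.25, 0.18 and 0.17. They were past Col-0 in 11, 6, 7 and 5 of 15 alternatives, and the CHI1 libraries with 1 µM PSK overlapped Col-0. THAS1 was not called against Col-0 without 1 µM PSK replicate 1 (0.52), 1 µM PSK replicate 3 (0.63), Col-0 replicate 2 (0.54) or Col-0 replicate 3 (0.58), nor with library totals (0.50, edgeR adjusted p = 0.062), and these left 1 thalianol gene above Col-0. Over 15 alternatives other than the 2-fold minimum, KCS12, ABCB14, CUT1, PIP2;1 and CYP708A2 were past Col-0 in each, 8 further genes in all but 1 or 2, and with library totals 17 genes were past Col-0, 8 of them shared with the 29.

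**Figure D4:**
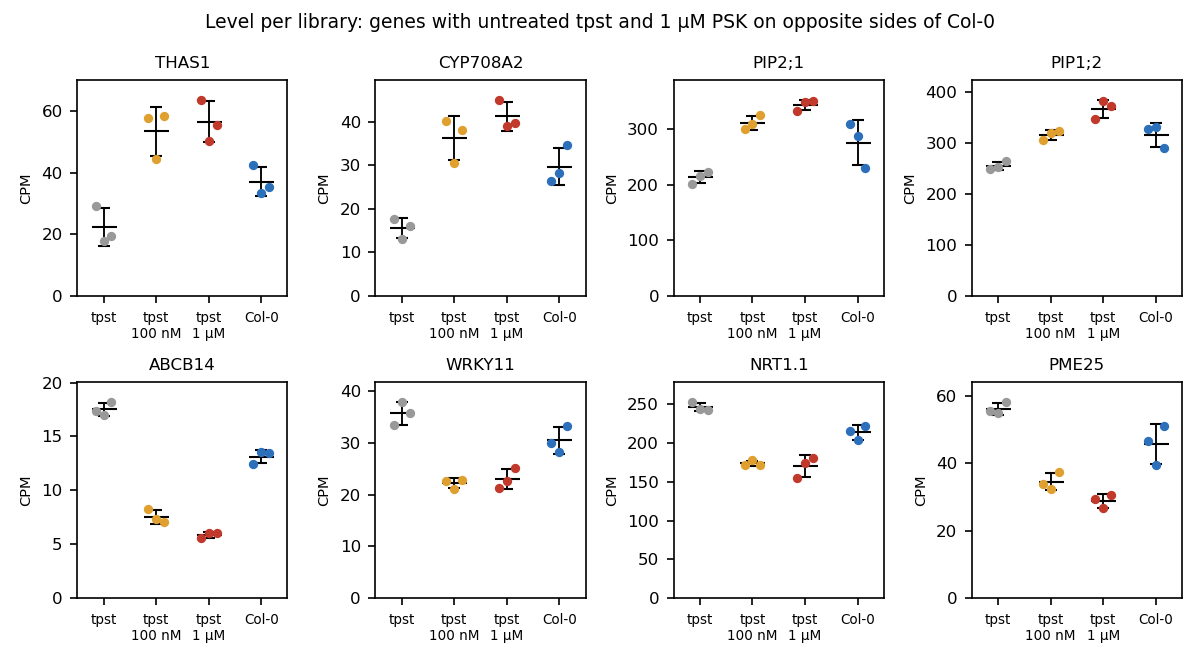
Points are the CPM of single libraries for THAS1, CYP708A2, PIP2;1, PIP1;2, ABCB14, WRKY11, NRT1.1 and PME25 in untreated tpst, tpst with 100 nM PSK, tpst with 1 µM PSK and Col-0, with the mean (bar) and SD of 3 libraries and vertical axes that start at 0. In the upper row untreated tpst is the lowest group by mean and 1 µM PSK the highest, and in the lower row Col-0 lies between untreated tpst and both PSK doses.

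Aquaporins and wall-loosening genes were split, with 9 of 24 higher than in Col-0, 10 lower and a median of -0.18. PIP2;2 (-0.79), EXPB1 (-1.26) and EXPA1 (-0.92) were lower, whereas EXPA5 (0.72), EXPA10 (0.65) and XTH22 (0.92) were higher. TIP1;1, an abundant vacuolar aquaporin, was lower in untreated tpst (-0.54 (edgeR adjusted p = 2.5e-08)) and did not differ from Col-0 by the test with 1 µM PSK (0.01 (edgeR adjusted p = 0.95)). Of 15 auxin genes 6 were lower and none was higher (median -0.30), among them the auxin-induced IAA2, with 10.6, 11.7 and 11.7 CPM with 1 µM PSK, 16.8, 13.6 and 15.98 CPM in untreated tpst and 24.4, 26.9 and 26.7 CPM in Col-0 (-1.20 ± 0.10 (SE, edgeR adjusted p = 1.1e-09) against Col-0), and PIN2, the auxin exporter of the root tip (-1.20 ± 0.15 (SE, edgeR adjusted p = 1.9e-05)). IAA1 (-0.82, edgeR adjusted p = 0.047) lost its call without 1 µM PSK replicate 1, 1 µM PSK replicate 2, 1 µM PSK replicate 3, tpst replicate 1, Col-0 replicate 1 or Col-0 replicate 2, with log2 changes from -0.90 to -0.68. IAA19 was lower in untreated tpst (-1.31), was raised by PSK (1.23) and had -0.08 against Col-0. BR6OX1, the single brassinosteroid gene called lower of 7, had a log2 change of -0.99 ± 0.29 (SE, edgeR adjusted p = 0.0096) and was lost without 1 µM PSK replicate 2 (-0.81, edgeR adjusted p = 0.060), while 2 were called lower without 1 µM PSK replicate 1 or Col-0 replicate 3. The call of BR6OX1 was 14.3% of this list, against 17.9% of all genes called lower.

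Cell cycle genes showed no called difference. None of 18 passed the test by edgeR in either direction, with a median log2 change of -0.04 and values from -0.28 to 0.17, and 0 passed at an unadjusted p under 0.05 or with DESeq2. A single gene (1 of 18) was called higher without 1 µM PSK replicate 3, and library totals gave 2 lower. Of 15 clock genes 1 was higher and 1 lower, CAT3 (0.19 ± 0.06 (SE, edgeR adjusted p = 0.013)) and GI (-0.30 ± 0.09 (SE, edgeR adjusted p = 0.014)). Each share, 6.67%, was under that of all genes, of which 16.9% were higher and 17.9% lower. Both calls depended on single libraries: GI was lost without 1 µM PSK replicate 2 or Col-0 replicate 3 and CAT3 without 1 µM PSK replicate 2, the lower calls numbered 0 to 2 and the higher calls up to 3 when a library was left out (3 without 1 µM PSK replicate 1 or Col-0 replicate 3), and library totals gave 0 higher and 5 lower. Heat shock and touch genes had 3 of 8 higher and none lower, XTH22, HSFA2 (0.78 ± 0.24 (SE, edgeR adjusted p = 0.014)) and TCH2 (0.61 ± 0.11 (SE, edgeR adjusted p = 9.6e-05)), with 5 higher without Col-0 replicate 1. HSFA2 was lost without 1 µM PSK replicate 1 (0.41, edgeR adjusted p = 0.23) or Col-0 replicate 2 (0.67, edgeR adjusted p = 0.061).

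**Figure D5:**
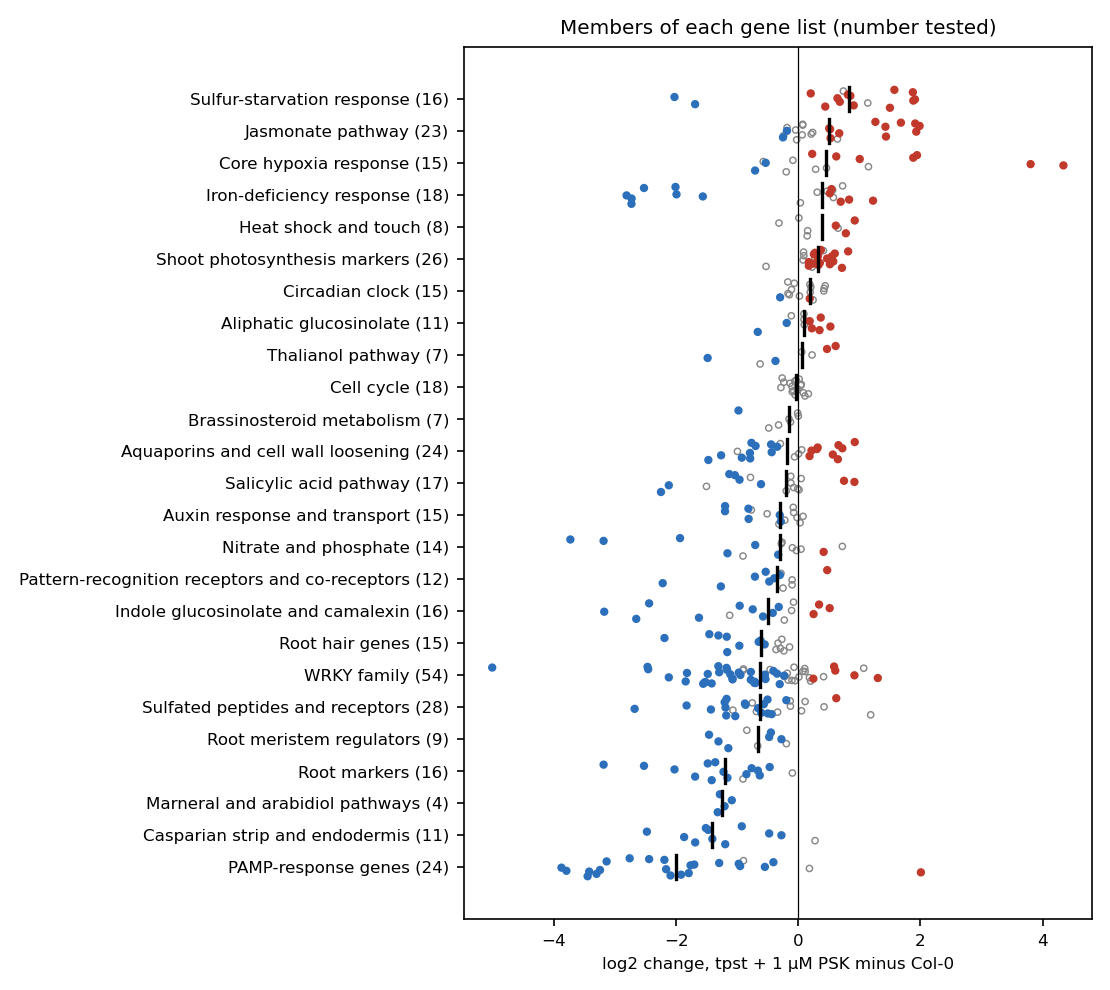
Each row is a gene list with its number of tested genes, each point a gene placed by its log2 change (tpst with 1 µM PSK minus Col-0), filled red or blue where it passed the test as higher or lower and open where it did not, and the black bar is the list's median. PAMP-response genes lie furthest to the left with a median of -2.0 and sulfur-starvation genes furthest to the right with 0.83.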

How the data were processed

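Messenger RNA with poly(A) tails was sequenced as 150-bp pairs from whole seedlings in 12 libraries. Per the study's methods and processing notes, the authors trimmed reads with fastp, aligned them to TAIR10 with HISAT2 2.0.5 and counted fragments per gene with featureCounts 1.5.0-p3. The deposited table holds these integer counts, and the authors also deposited FPKM computed from them. Strand and multi-mapping settings are not given in the sources used here.

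Counts were fitted in R 4.3.3 with edgeR 4.0.16 (filterByExpr, TMM, robust quasi-likelihood test, 12 libraries, a term per group, 8 residual degrees of freedom). Of 32833 genes 20506 were tested. Genes were called at a Benjamini-Hochberg adjusted p of 0.05, two-sided. An exact permutation test of 3 against 3 libraries cannot go below 0.1, so no such test is given. Log2 changes are tpst with 1 µM PSK minus Col-0 unless stated, with the SE as the absolute change over the root of F. The script was tested on simulated data. The study describes independent biological replicates of pooled seedlings. Counting intervals and floors cover counting error only.

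The members, lists and tests were chosen with earlier results of these data known. Named genes were the TPST, PSK and PSKR genes, the 10 highest and 10 lowest called genes with a mean of at least 10 CPM in the higher group and no overlap, up to 6 genes of each class, up to 4 called genes of each list and up to 4 genes near 0 in a group. Genes of a list given with a log2 change alone were named after their values were seen. Of 388 list entries, 369 symbols matched the file's or RefSeq's names. Gene starts and ends in the table matched RefSeq TAIR10.1 for 8656 of 8656, 5166 of 5174, 6428 of 6435, 4920 of 4921 and 7362 of 7362 genes on chromosomes 1 to 5. Alternatives were other size factors, library totals, no filter, DESeq2 1.42.0, a fit to the compared groups, a replicate block, leaving out each library and a 2-fold minimum.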

Additional observations from a re-analysis of the deposited data

How the results depend on the processing

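Between tpst with 1 µM PSK and Col-0, 7135 genes were called, and 6266 to 8007 were called under other size factors, library totals, no filter, DESeq2, a fit to the compared groups and the replicate block, with 0 calls of opposite sign. Library totals gave 2182 higher and 5825 lower genes and 17 genes past Col-0, 11 of them lower. A 2-fold minimum gave 1609 calls (339 higher, 1270 lower), 892 genes still separated with no called PSK effect, 15 moved toward Col-0, 43 moved further away, 137 moved away with no called difference in untreated tpst, 368 no longer separated, 522 called only between tpst with 1 µM PSK and Col-0, and 0 past Col-0 (0 higher, 0 lower). The causes were not tested.

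Leaving out 1 library at a time gave 5964 to 7039 calls, 65 to 175 genes moved toward Col-0, 182 to 529 moved further away, 331 to 770 moved away with no called difference in untreated tpst, and 16 to 39 past Col-0 (5 to 8 higher, 10 to 32 lower). Over all genes, same-numbered replicates deviated together with correlations of -0.08 to 0.06, which cannot exclude a link in single genes. LBD41, HRA1, AT4G10265, AT1G33055 and AT4G24110 rose from replicate 1 to replicate 3 in each tpst group. The replicate block gave 7168 calls. Of 129 named genes 14 changed their call under some alternative and 0 turned their sign. Genes of a few counts, such as WRKY49, VSP2 and PSK2, are limited by depth.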
